A study of Mus musculus with 70 samples.

Results

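Gene expression in the dorsal hippocampus was compared between adult male C57BL/6J mice that ran voluntarily for 2 days (group 0-0-2) and sedentary mice (exercise code 0-0-0). The comparison used 20 of the 70 RNA-seq libraries of the study, 10 per group, each from the hippocampi of 1 mouse. The 3 numbers of an exercise code are the days of first running, of sedentary delay and of later running, so mice of the 0-0-2 group had wheel cages for the last 2 days only and had never run before. The sedentary mice lived in standard cages without a wheel, and in every regime wheels were taken out on the night before training. Neither group carried a transgene or received a drug, and both were trained in the object location memory (OLM) task by a session too short to leave a lasting memory, with the tissue taken 1 h later. Libraries were collected in 2 harvest cohorts, with replicates 0 to 4 of each group in cohort 1 and replicates 5 to 9 in cohort 2. The comparison asks which genes differ after 2 days of running without earlier exercise, the pattern that serves in the study as the control for the 2-day reactivating run of the 14-7-2 group (14 days of running, 7 days of rest, 2 days of running).

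Running raises the firing, blood flow and metabolism of the hippocampus, and longer running is known for raising neurotrophin expression and the birth of granule neurons in the dentate gyrus. Training in a new place switches on immediate early genes, which encode transcription factors and synaptic proteins and are transcribed within minutes of neuronal activity. Mice run mostly at night, and genes of the circadian clock and of the response to body temperature follow activity and time of day. Neurons and glia make their own cholesterol, because lipoproteins of the blood do not cross into the brain, and the genes of this pathway are switched on together by the transcription factor SREBP2 with its partner NF-Y when sterol in the endoplasmic reticulum membrane falls.

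Of the gene groups described below, 4 cholesterol genes and 1 clock gene that passed the test are shown here by the 250 bases before their start sites, taken from the RefSeq promoter table of GRCm38.p6 and written 5′ to 3′ on the strand of the gene, because members of the cholesterol pathway moved together. The first 4 belong to cholesterol synthesis and rose. In these, capitals mark the NF-Y box (CCAAT, or ATTGG on the other strand) and the sterol regulatory element (TCACNCCAC on either strand). The last is the clock gene Ciart, which fell, in which capitals mark the E-box (CACGTG), the site read by the clock activators, and of which 221 bases are shown. The windows are chrX:72918271-72918520 (plus strand) for Nsdhl, chr8:64733579-64733828 (minus strand) for Msmo1, chr13:119690101-119690350 (plus strand) for Hmgcs1, chr5:4104698-4104947 (minus strand) for Cyp51 and chr3:95882258-95882478 (minus strand) for Ciart.
Nsdhl: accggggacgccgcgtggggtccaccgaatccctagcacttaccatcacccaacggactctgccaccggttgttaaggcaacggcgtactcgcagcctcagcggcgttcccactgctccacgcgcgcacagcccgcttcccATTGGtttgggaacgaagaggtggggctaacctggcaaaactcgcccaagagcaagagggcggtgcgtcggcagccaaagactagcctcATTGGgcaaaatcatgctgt
Msmo1: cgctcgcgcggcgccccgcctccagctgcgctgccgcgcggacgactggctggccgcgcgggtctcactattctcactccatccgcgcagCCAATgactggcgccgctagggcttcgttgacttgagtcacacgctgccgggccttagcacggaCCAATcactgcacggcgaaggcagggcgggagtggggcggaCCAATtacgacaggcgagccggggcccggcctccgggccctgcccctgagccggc
Hmgcs1: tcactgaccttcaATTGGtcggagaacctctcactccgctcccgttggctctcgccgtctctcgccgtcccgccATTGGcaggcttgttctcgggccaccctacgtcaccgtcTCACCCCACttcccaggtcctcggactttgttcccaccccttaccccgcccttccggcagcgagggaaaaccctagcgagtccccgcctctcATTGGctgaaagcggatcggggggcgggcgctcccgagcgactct
Cyp51: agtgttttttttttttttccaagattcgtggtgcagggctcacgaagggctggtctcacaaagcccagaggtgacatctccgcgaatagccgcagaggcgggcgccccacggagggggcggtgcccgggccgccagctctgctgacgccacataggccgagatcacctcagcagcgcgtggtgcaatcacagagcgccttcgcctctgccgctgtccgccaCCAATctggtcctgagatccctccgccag
Ciart: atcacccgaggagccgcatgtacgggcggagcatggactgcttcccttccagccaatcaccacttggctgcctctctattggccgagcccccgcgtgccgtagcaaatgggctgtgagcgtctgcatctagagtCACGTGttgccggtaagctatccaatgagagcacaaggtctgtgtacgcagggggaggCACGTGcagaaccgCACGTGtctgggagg

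A CCAAT box on either strand was present in 9 of the 9 promoters matched among the 11 cholesterol genes that rose, and in 17 of the 19 matched among the 26 tested. Of all genes with a listed promoter 37.5% had one in at least 1 of their promoters, and 33.8% of the 32851 promoters did. The box was no particular mark of this pathway, being present in 19 of 21 matched genes of the endoplasmic reticulum list and 9 of 12 of the clock repressor list, against 3 of 13 immediate early genes. The sterol regulatory element spelled above was found in 1.05% of all promoters and in 1 of the 19 cholesterol promoters, that of Hmgcs1. An E-box was present in 6.02% of all promoters, in 5 of 12 clock repressor promoters and in 5 of 19 cholesterol promoters. The cAMP response element TGACGTCA, the site of the activity-dependent factor CREB, was present in 1.55% of all promoters and in 2 of 13 immediate early promoters. These are matches of letters in a window before the start and show no binding.

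Values are FPKM (fragments per kilobase of transcript, scaled to the mapped fragments of the library). Differences are given as 0-0-2 minus sedentary in log2(FPKM + 0.1) with their standard error (SE), so a difference of 0.35 is close to 27% and the differences of low genes are understated. Of 12994 genes tested, 148 (1.14%) were higher and 160 (1.23%) lower at an unadjusted p under 0.05 in limma, the threshold the study used. This is 308 genes (2.37%) where 649.7 would pass by chance alone if no gene differed, and 0 passed after Benjamini-Hochberg adjustment, with a smallest adjusted p of 0.758. Genes described below as having risen or fallen passed the unadjusted test only. The differences were small. The median over the genes that rose was 0.20 and 137 of the 148 were under 0.5, and the median over the genes that fell was −0.32 with 133 of 160 above −0.5. No gene had groups that did not overlap (0 of 12994, 0% in either direction), with all libraries or without sedentary replicate 6.

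Sedentary replicate 6 stood apart. It had 2.45 FPKM of the pyramidal cell gene Neurod6 and 2.91 FPKM of the granule cell gene Prox1, both the lowest of the 20 libraries. Its summed CA1 and CA3 list was 943 FPKM, below the 1084 to 1466 of the other sedentary libraries, whereas its summed dentate list of 254 FPKM lay within their 129 to 294. Its summed thalamus list was 346 FPKM against 59.0 to 71.8 in the other sedentary libraries. Its median correlation with the other 19 libraries was 0.889. Among the 0-0-2 libraries, replicate 4 had a summed thalamus list of 203 FPKM, and replicates 9 and 3 had summed choroid plexus lists of 11337 and 1416 FPKM against 28.9 to 389 in the sedentary group. The other 18 libraries apart from sedentary replicate 6 and 0-0-2 replicate 9 had median correlations between 0.947 and 0.967. Read depth relative to sedentary replicate 0, estimated from the steps between low FPKM values, ran from 0.637 to 1 in the sedentary and from 0.472 to 1.48 in the 0-0-2 libraries. Without sedentary replicate 6, 161 genes (1.24%) were higher and 166 (1.28%) lower, and 96 and 99 of these were shared with the 148 and 160. Every result is therefore given with all 20 libraries, and without that library where the call or the size differs.

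Of the 30 gene lists examined, that of cholesterol synthesis and its control held the most genes that rose. Of its 26 members tested, 11 rose and 0 fell, against 1.14% of all genes in the same direction, and 21 were higher against 53.2% of all genes. Their median difference was 0.19, where the median over all genes was 0.0064. The count without sedentary replicate 6 was again 11, with the same 11 genes and a median of 0.17. The summed FPKM of the list ran from 516 to 656 in the sedentary libraries (median 575) and from 604 to 707 in the 0-0-2 libraries (median 648). All 10 of the 0-0-2 libraries were above the sedentary median, although the groups overlapped.

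Nsdhl, the sterol 4-alpha-carboxylate dehydrogenase that helps remove the methyl groups of lanosterol-derived intermediates, had the smallest p of all genes. Its lowest, median and highest values were 8.98, 10.3 and 13.2 FPKM in the sedentary and 11.9, 12.9 and 16.7 FPKM in the 0-0-2 libraries. Of the sedentary libraries 9 of 10 were below the lowest 0-0-2 library, the exception being replicate 9, and all 10 of the 0-0-2 libraries were above the sedentary median. The difference was 0.35 ± 0.07 (27.4% higher, p = 5.83e-05, adjusted p = 0.758 in limma). Permuting the group labels of the same 20 libraries gave a permutation p = 0.00014, and p = 0.000195 without sedentary replicate 6. Nsdhl was picked for its smallest p in these libraries. The permutation makes no allowance for that choice among 12994 genes and is no separate support. The difference was 0.32 in cohort 1 and 0.37 in cohort 2.

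Msmo1 is the methylsterol monooxygenase that acts just before Nsdhl in the pathway. It ran from 41.8 to 66.6 FPKM in the sedentary libraries (median 51.0) and from 49.8 to 79.4 FPKM in the 0-0-2 libraries (median 64.9). The difference was 0.34 ± 0.09 (p = 0.000766), with 9 of 10 of the 0-0-2 libraries above the sedentary median. It was 0.32 in cohort 1 and 0.36 in cohort 2, and Msmo1 also had the highest correlation with Nsdhl of all genes over the 20 libraries (r = 0.89, or 0.79 after each group's mean was removed). The next by the same measure were Sqle (r = 0.83), the respiratory complex III subunit Uqcrc2 (0.80), Acss2 (0.79) and Lyrm2 (0.79). The libraries behind these values share their depth and dissection, and the correlations are a description.

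The enzymes of the mevalonate steps, which build the isoprenoid units, moved in the same direction. Hmgcs1, the cytosolic HMG-CoA synthase, ran from 58.7 to 98.8 FPKM (median 77.2) in the sedentary and from 80.1 to 109.8 FPKM (median 94.9) in the 0-0-2 libraries, a difference of 0.31 ± 0.09 (p = 0.00161). Idi1, the isopentenyl diphosphate isomerase, ran from 20.6 to 28.1 FPKM (median 26.3) and from 24.3 to 37.6 FPKM (median 29.6), a difference of 0.28 ± 0.09 (p = 0.00457). For Idi1, 7 of the 10 0-0-2 libraries were above the highest sedentary library.

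In the squalene and lanosterol steps, Fdft1 (squalene synthase), Sqle (squalene epoxidase), Lss (lanosterol synthase) and Cyp51 (lanosterol demethylase) rose. Cyp51 ran from 13.9 to 19.7 FPKM (median 17.0) in the sedentary and from 17.0 to 23.8 FPKM (median 20.3) in the 0-0-2 libraries, and its difference was 0.25 ± 0.07 (p = 0.00164). Sqle had medians of 23.3 and 27.1 FPKM and a difference of 0.20 ± 0.07 (p = 0.00711), and Lss had medians of 5.63 and 6.51 FPKM and a difference of 0.21 ± 0.07 (p = 0.0107). All 10 of the 0-0-2 libraries were above the sedentary median for each of Cyp51, Sqle and Lss. The difference of Fdft1 was 0.15 ± 0.06 (p = 0.0239), and its p was 0.0508 without sedentary replicate 5. The gene Fdft1 overlaps Ctsb in the annotation, and reads of overlapping genes cannot be told apart here.

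Of the late reductases and the regulators, Tm7sf2 (sterol C14 reductase) had medians of 7.34 and 10.1 FPKM and a difference of 0.33 ± 0.12 (p = 0.011), with 7 of the 10 0-0-2 libraries above the highest sedentary library. It overlaps Vps51. Sc5d, the lathosterol oxidase, had medians of 29.3 and 32.3 FPKM and a difference of 0.18 ± 0.06 (p = 0.00858), which was 0.28 in cohort 1, 0.08 in cohort 2 and 0.030 in cohort 2 without sedentary replicate 6. Insig1, which retains the SREBP complex in the endoplasmic reticulum and is itself an SREBP target, had medians of 26.3 and 27.8 FPKM and a difference of 0.17 ± 0.08 (p = 0.036). Insig1 lost its call in 8 of the 20 fits that left out 1 library, those without 0-0-2 replicates 0, 2, 3 or 9 or sedentary replicates 0, 4, 5 or 7, with p up to 0.0718.

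**Figure D1:**
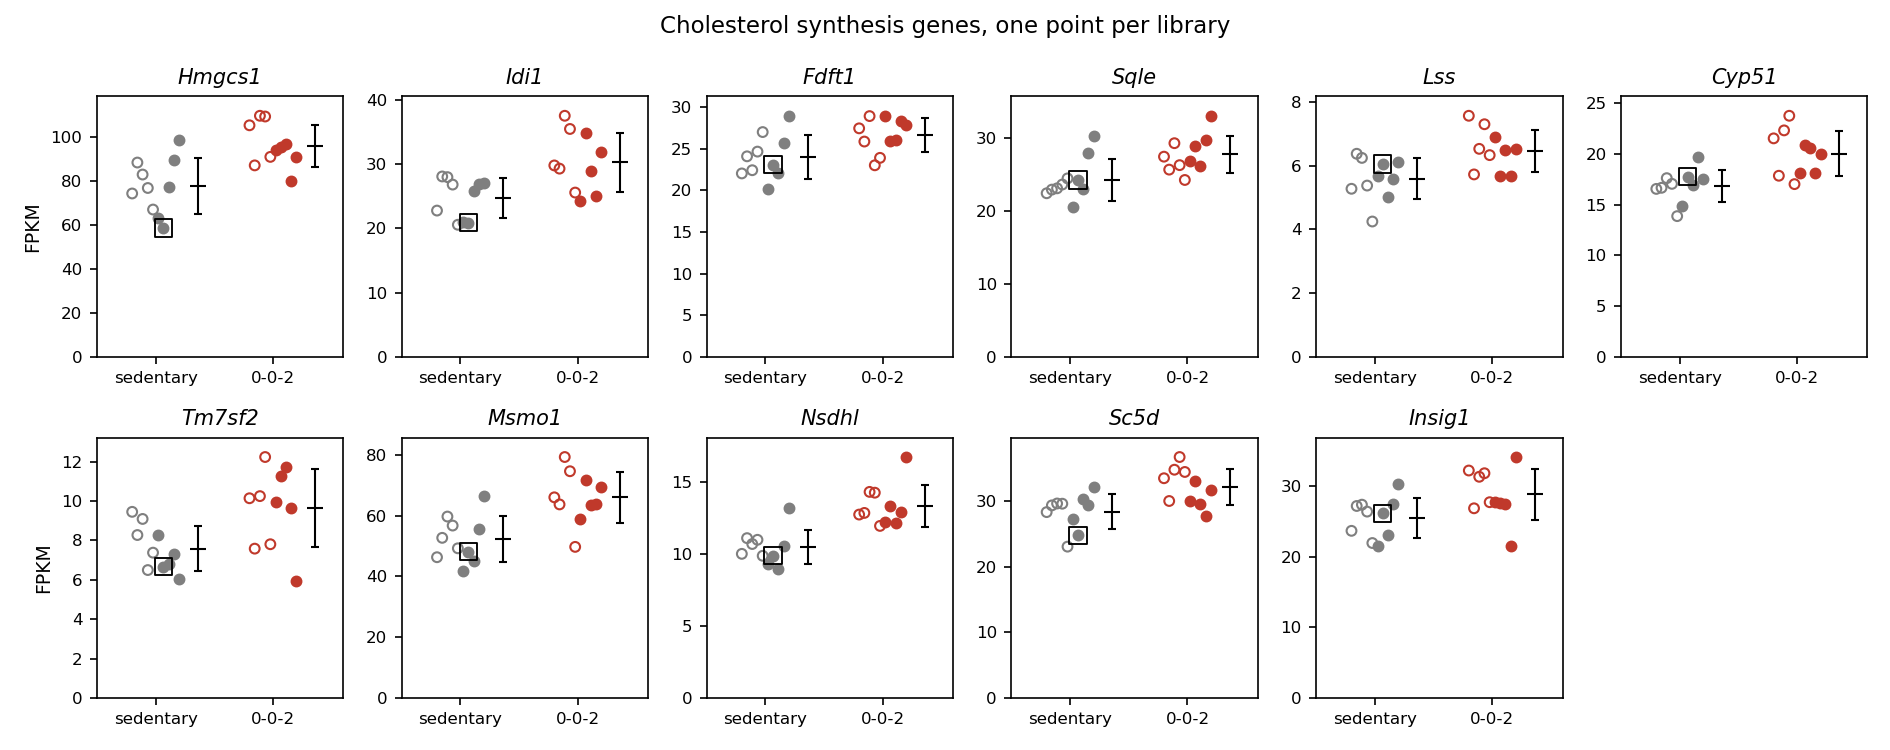
FPKM (y axes, each scaled to its gene) of 11 cholesterol genes in the 10 sedentary and 10 0-0-2 libraries, with open circles for harvest cohort 1, filled circles for cohort 2, a square for sedentary replicate 6, and bars for mean ± SD (n = 10). The groups overlap in every panel, and Nsdhl has 9 of 10 sedentary libraries below the lowest 0-0-2 library.

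Neighbouring lipid genes moved less. Among 12 tested genes of fatty acid synthesis and desaturation 2 rose (1.14% of all genes), 0 fell and the median was 0.03. Acss2, the acetyl-CoA synthetase, had medians of 20.1 and 25.1 FPKM and a difference of 0.26 ± 0.08 (p = 0.00348), and its gene overlaps the antisense gene Acss2os. Fads1, a fatty acid desaturase, had a difference of 0.14 ± 0.07 (p = 0.0477), which became 0.18 (p = 0.0052) without sedentary replicate 6, the highest sedentary library at 97.4 FPKM. The Fads1 call was lost in 16 of the 20 fits without 1 library. The 14 tested genes of cholesterol efflux carry sterol out of cells. Of these, 11 were lower (46.8% of all genes) and 1 fell (1.23%), with a median of −0.08. That gene was Nr1h3 (LXR alpha, a sterol-sensing receptor that switches efflux genes on), with 1.79, 2.04 and 2.73 FPKM as lowest, median and highest sedentary values and 1.43, 1.84 and 2.03 FPKM in the 0-0-2 libraries. All 10 of the 0-0-2 libraries were below its sedentary median and the difference was −0.25 ± 0.09 (p = 0.0148).

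The clock genes that passed the test were repressors and evening genes that fell and an activator that rose. Of 15 tested clock repressors and evening genes, 5 fell, 0 rose and 14 were lower, with a median of −0.14. Over all genes tested 1.23% fell and 46.8% were lower. These 5 were Ciart, Dbp, Nr1d2, Per2 and Per3. Among 9 clock activators and their partners, 1 rose and 5 were higher, with a median of 0.02, or 4 higher with a median of −0.02 without sedentary replicate 6. The gene that rose was Arntl (BMAL1), the activator that binds E-boxes with CLOCK or NPAS2 and whose messenger is repressed by the REV-ERB receptors.

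Arntl ran from 8.22 to 13.9 FPKM in the sedentary libraries (median 12.1) and from 9.64 to 18.3 FPKM in the 0-0-2 libraries (median 15.7). The highest sedentary value was below 7 of the 10 0-0-2 libraries, and the lowest value in each group came from 1 library apart from the rest, sedentary replicate 6 and 0-0-2 replicate 8. The difference was 0.32 ± 0.10 (p = 0.00509), and 0.26 without sedentary replicate 6. Npas2, the partner of Arntl in the forebrain, did not pass the test with all libraries (0.29 ± 0.19, p = 0.142) and did without sedentary replicate 6 (0.41, p = 0.0173).

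Ciart, which represses CLOCK-BMAL1 at E-boxes, ran from 3.78 to 7.60 FPKM (median 4.96) in the sedentary and from 2.09 to 5.42 FPKM (median 3.69) in the 0-0-2 libraries. Of the 10 0-0-2 libraries 8 were below the sedentary median and the difference was −0.48 ± 0.16 (p = 0.00727). Dbp, a transcription factor that follows E-box activity closely, had medians of 14.4 and 11.1 FPKM and a difference of −0.33 ± 0.12 (p = 0.0109), and it overlaps Sphk2. Nr1d2 (REV-ERB beta), a repressor of Arntl, had medians of 23.3 and 20.1 FPKM and a difference of −0.25 ± 0.09 (p = 0.011), with all 10 of the 0-0-2 libraries below the sedentary median.

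Of the period genes, which encode the core repressors, Per2 had lowest, median and highest values of 5.70, 7.18 and 10.7 FPKM in the sedentary and 4.33, 6.48 and 7.25 FPKM in the 0-0-2 libraries. Its difference was −0.27 ± 0.11 (p = 0.0177), and 5 sedentary libraries were above the highest 0-0-2 library. Per3 had medians of 5.65 and 4.68 FPKM and a difference of −0.36 ± 0.15 (p = 0.0262). The Per3 call was lost without 0-0-2 replicate 4 or 6 or sedentary replicate 0, 2 or 5, with p up to 0.0554. Per1 was −0.29 (p = 0.0929). The clock repressor list had a median of −0.22 with 4 calls in cohort 1 and −0.10 with 1 call in cohort 2, where it was −0.17 without sedentary replicate 6. When sedentary replicate 6 was left out, 6 of its members fell. The time of day of each dissection was not given per library, so it cannot be told apart from the groups.

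The cold-inducible RNA-binding genes rose as a pair, whereas the rest of the heat shock list did not rise. Of 20 tested members 2 rose (1.14% of all genes), 1 fell (1.23%) and 16 were lower (46.8%), with a median of −0.09. Without sedentary replicate 6, 1 rose, 1 fell and the median was −0.06. Cirbp, whose messenger is stabilised at lower temperature, ran from 28.1 to 47.7 FPKM (median 36.6) in the sedentary and from 41.3 to 53.6 FPKM (median 45.5) in the 0-0-2 libraries, and 7 sedentary libraries were below the lowest 0-0-2 library. Its difference was 0.32 ± 0.09 (p = 0.00178). Rbm3, a cold-induced protein of dendritic spines and translation, had medians of 73.7 and 93.7 FPKM with ranges of 50.5 to 110.1 and 74.9 to 102, and a difference of 0.29 ± 0.13 (p = 0.0311). Its call was lost without 0-0-2 replicate 3 or sedentary replicate 0, 4, 6 or 8, and it overlaps the antisense gene Rbm3os. The member of the heat shock list that fell was Cryab, a small heat shock protein that oligodendrocytes express, described below with the myelin genes.

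Immediate early genes were lower on the whole in the 0-0-2 libraries. Of 17 tested, 3 fell, 0 rose and 14 were lower, with a median of −0.30 (−0.34 without sedentary replicate 6), against 1.23% of all genes that fell and 46.8% that were lower. Fos, a subunit of AP-1, ran from 3.22 to 16.3 FPKM (median 6.10) in the sedentary and from 2.72 to 7.85 FPKM (median 4.36) in the 0-0-2 libraries. The sedentary libraries were spread widely, with 16.3 FPKM in replicate 8, 13.4 FPKM in replicate 0 and 11.4 FPKM in replicate 7, and 4 of them above every 0-0-2 library. The Fos difference was −0.69 ± 0.28 (p = 0.0246) and lost its call without sedentary replicate 0 or 8, with p up to 0.0523.

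Npas4, an activity-dependent factor of inhibitory synapses, ran from 1.22 to 5.15 FPKM (median 2.25) and from 1.20 to 2.499 FPKM (median 1.64), with a difference of −0.54 ± 0.21 (p = 0.0168). Egr1 (Zif268), a zinc finger factor of memory consolidation, ran from 45.9 to 99.7 FPKM (median 69.4) and from 36.1 to 85.2 FPKM (median 49.7), with a difference of −0.43 ± 0.18 (p = 0.0219). For each of Fos, Npas4 and Egr1, 9 of the 10 0-0-2 libraries were below the sedentary median. Arc, the synaptic protein gene, ran from 20.9 to 109 FPKM and from 18.8 to 63.8 FPKM and did not pass the test (−0.51 ± 0.29, p = 0.0943). Without sedentary replicate 6, 5 members fell, with Egr3 and Nr4a3 added. The same count of 5 was found without sedentary replicate 1 or 3 or without 0-0-2 replicate 6 or 8, and 2 fell without sedentary replicate 0 or 8. Over all 12994 genes, from 105 to 262 fell in the fits without 1 library. Of 20 later activity genes 1 rose and 11 were higher, with a median of 0.04. When sedentary replicate 6 was left out, 6 were higher with a median of −0.05, and Dusp5, a phosphatase of the ERK kinases, fell (−0.42). The gene that rose was Scg2, a secretory granule protein, with medians of 97.4 and 115 FPKM and a difference of 0.18 ± 0.08 (p = 0.0322), or 0.23 (p = 0.00402) without sedentary replicate 6.

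Chaperones of the endoplasmic reticulum, which fold secreted and membrane proteins, were lower in 21 of 24 members, with a median of −0.13, 4 that fell and 0 that rose, where 46.8% of all genes were lower and 1.23% fell. Without sedentary replicate 6, 3 fell and the median was −0.11. Calr (calreticulin) ran from 160.1 to 255 FPKM (median 187) in the sedentary and from 147 to 197 FPKM (median 164) in the 0-0-2 libraries, a difference of −0.25 ± 0.08 (p = 0.00526). Hspa5 (BiP) had medians of 108 and 94.1 FPKM and a difference of −0.32 ± 0.12 (p = 0.0183), with the highest values of 194 and 156 FPKM in sedentary replicates 0 and 6, and it overlaps Rabepk. Pdia6, a disulphide isomerase, had medians of 56.8 and 51.8 FPKM and a difference of −0.25 ± 0.09 (p = 0.0127). Hyou1 was −0.17 ± 0.07 (p = 0.0313) and lost its call in 7 of the fits without 1 library, among them that without sedentary replicate 6 (p = 0.0613). The number of members that fell was 10 without 0-0-2 replicate 9, the library highest in choroid plexus genes. It was 8 without 0-0-2 replicates 3 and 9, where 1.11% of all genes fell. In fits without 1 library, from 105 to 262 of all 12994 genes fell.

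**Figure D2:**
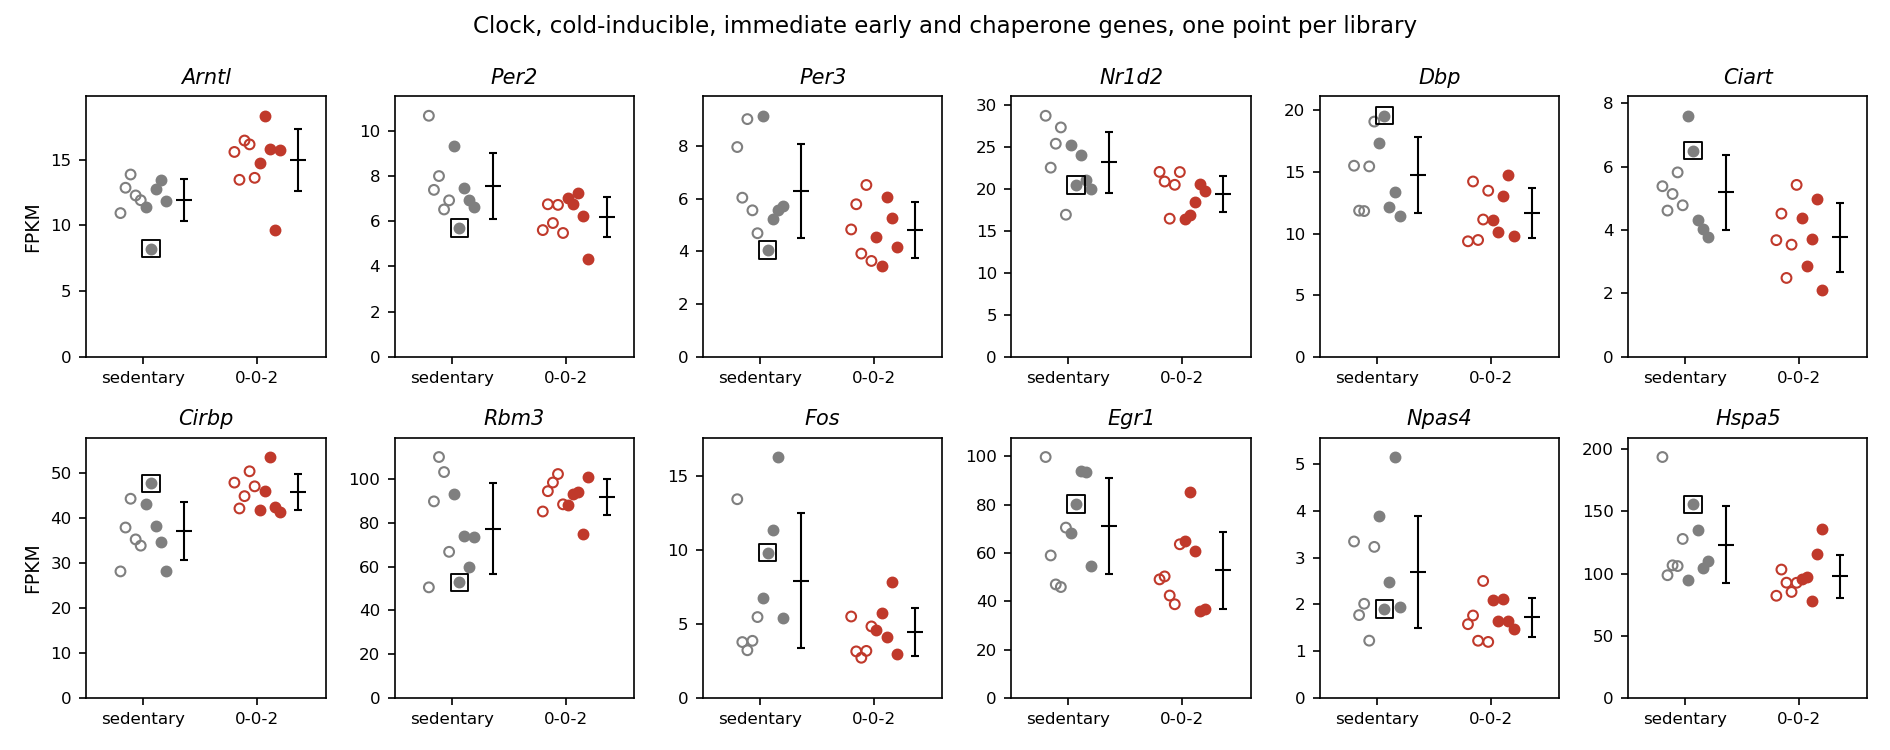
FPKM (y axes, each scaled to its gene) of 8 clock and cold-inducible genes, 3 immediate early genes and the chaperone gene Hspa5 in the 10 sedentary and 10 0-0-2 libraries, with open circles for harvest cohort 1, filled circles for cohort 2, a square for sedentary replicate 6, and bars for mean ± SD (n = 10). Arntl, Cirbp and Rbm3 have higher and the other 9 genes lower means in 0-0-2, and the high sedentary values of Fos lie in single libraries, the highest at 16.3 FPKM.

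Myelin genes gave the longest list of falls, and the one most tied to single libraries. Of 24 tested, 13 fell, 0 rose and 23 were lower, with a median of −0.44, while 1.23% of all genes fell and 46.8% were lower. When sedentary replicate 6 was left out, 5 fell and the median was −0.30, while 1.28% of all genes fell. The summed FPKM of the list was 9507 in sedentary replicate 6, from 2436 to 5333 in the other sedentary libraries and from 1942 to 5108 in the 0-0-2 libraries, so the groups overlapped over nearly their whole range. The count of falls was also 5 without 0-0-2 replicate 1, 7 or 8, 7 without sedentary replicate 9 and 8 without sedentary replicate 4. It was 21 without 0-0-2 replicate 0 or without sedentary replicate 2. Falls over all 12994 genes moved in the same fits, to 105 without 0-0-2 replicate 1, 247 without 0-0-2 replicate 0 and 262 without sedentary replicate 2. In bulk tissue, fewer oligodendrocytes and less messenger per oligodendrocyte cannot be told apart, and neither can the share of white matter in the dissection.

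The 5 that fell with and without sedentary replicate 6 were Myrf, Cryab, Mobp, Plekhb1 and Bcas1. Myrf, the transcription factor that switches on myelination, ran from 7.87 to 27.3 FPKM (median 13.5) in the sedentary and from 6.22 to 15.4 FPKM (median 8.36) in the 0-0-2 libraries, with a difference of −0.53 ± 0.19 (p = 0.011) and −0.42 (p = 0.0202) without that library. Mobp, a structural myelin protein, had medians of 153 and 105 FPKM and a difference of −0.55 ± 0.22 (p = 0.0199), or −0.43 (p = 0.0388). Cryab had medians of 125 and 86.5 FPKM and a difference of −0.54 ± 0.21 (p = 0.0175), with all 10 of the 0-0-2 libraries below the sedentary median, and it overlaps Hspb2. Mbp, the myelin basic protein, had medians of 1813 and 1406 FPKM and a difference of −0.53 ± 0.25 (p = 0.0488), and did not pass without sedentary replicate 6 (−0.39, p = 0.0994).

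Among 14 oligodendrocyte precursor genes 2 fell (1.23% of all genes) and 13 were lower (46.8%), with a median of −0.19. Without sedentary replicate 6, 11 were lower with a median of −0.09. The 2 that fell with all libraries were Gpr17, a receptor of cells about to differentiate (−0.30, p = 0.0284), and the sialidase Neu4 (−0.23, p = 0.0328). Neither passed without sedentary replicate 6 (p = 0.0579 and 0.064). With the mean level of the myelin list as a covariate, 13 cholesterol genes were higher past the threshold (1.29% of all genes), and 6 clock repressor, 2 immediate early and 2 endoplasmic reticulum genes were lower (0.808% of all genes). The myelin list itself is fitted away in that model. With the choroid plexus level as a covariate, 12 cholesterol genes were higher (1.05% of all genes), and 4 clock repressor, 1 immediate early, 7 endoplasmic reticulum and 17 myelin genes were lower (1.55%). Without sedentary replicate 6 and 0-0-2 replicate 4, the libraries highest in thalamus genes, 12 cholesterol genes were higher (1.24%), and 6 clock repressor, 4 immediate early, 3 endoplasmic reticulum and 10 myelin genes were lower (1.35%).

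**Figure D3:**
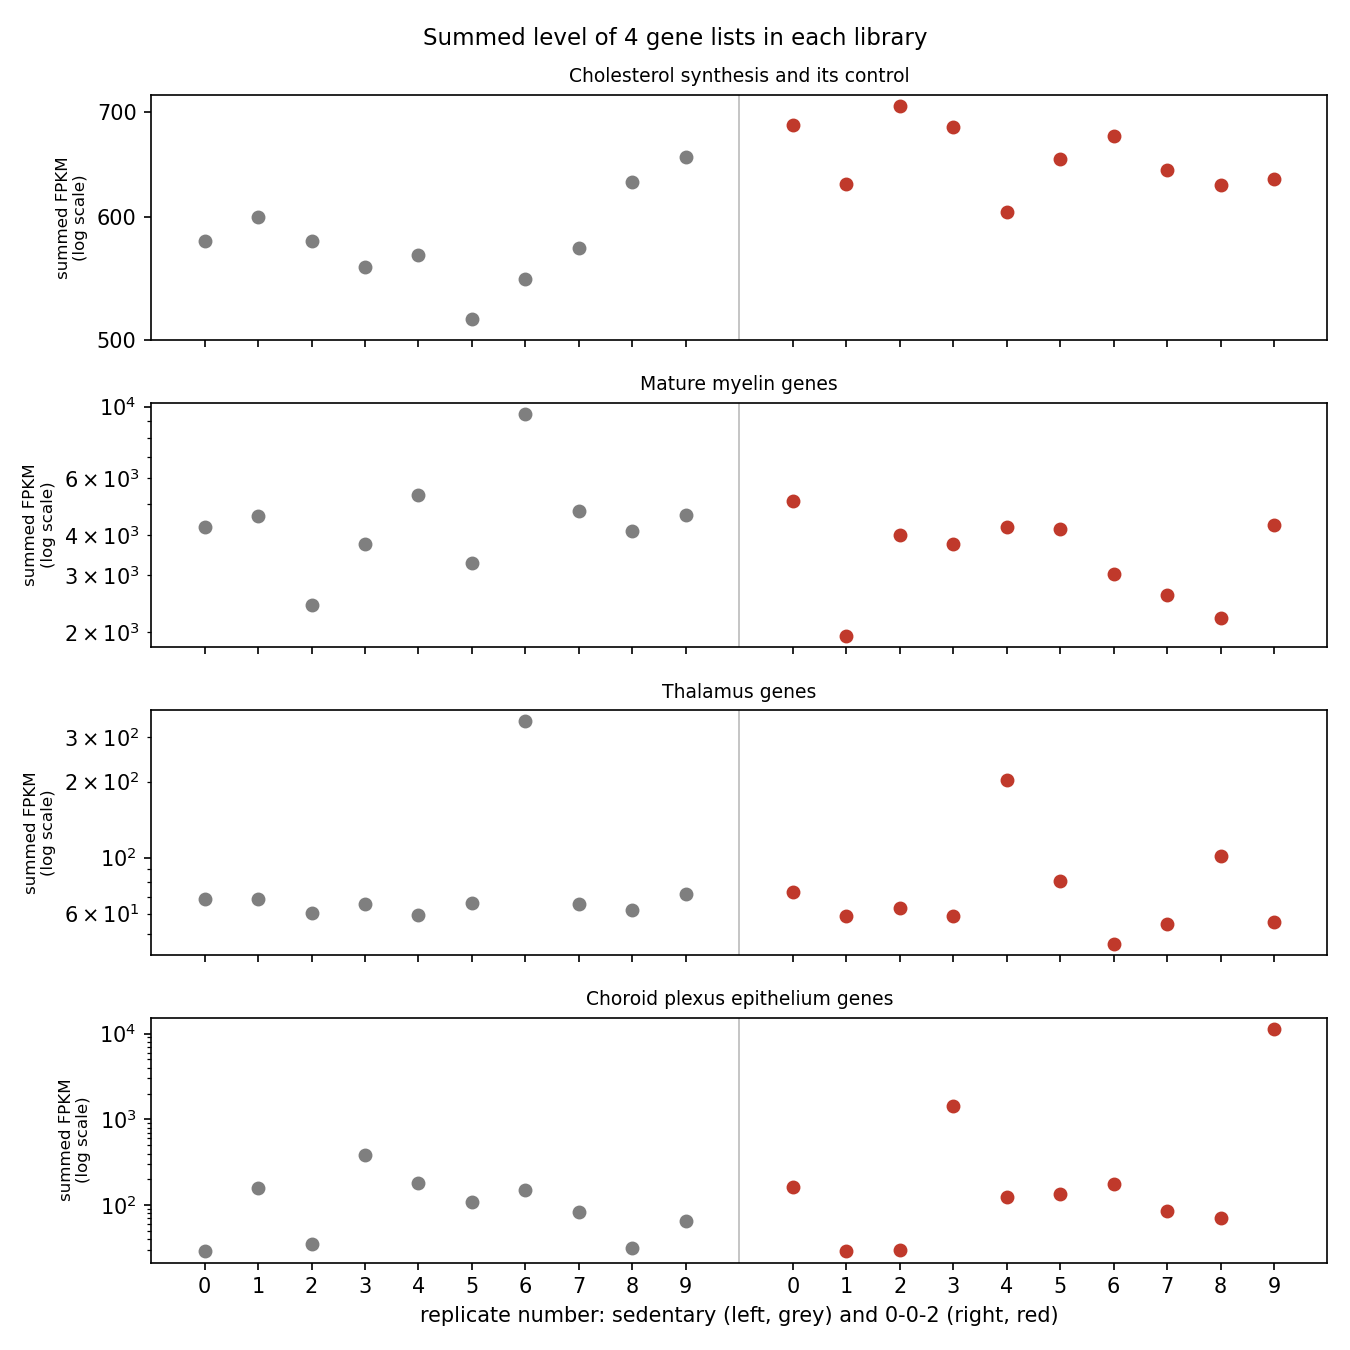
Summed FPKM per library (log scale) of the cholesterol, myelin, thalamus and choroid plexus lists. Points are the 10 sedentary (left, grey) and 10 0-0-2 (right, red) libraries, in order of replicate number. The myelin and thalamus sums are highest in sedentary replicate 6 (9507 and 346 FPKM), the choroid plexus sum reaches 11337 FPKM in 0-0-2 replicate 9, and the cholesterol sums lie between 516 and 707 FPKM.

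The harvest cohorts share no library, so each gives its own estimate with 5 libraries per group. In cohort 1 98 genes (0.754%) were higher and 79 (0.608%) lower, and in cohort 2 84 (0.646%) were higher and 270 (2.08%) lower. Only 6 genes passed in both, and whether this is more than chance would give was not tested. Nsdhl, Msmo1, the muscle-type phosphoglycerate mutase gene Pgam2 and the polycomb gene Cbx7 did so in the same direction. The other two, Dynlt1b (0.66 in cohort 1 and −0.71 in cohort 2) and Lrrc55 (0.42 and −0.46), went opposite ways. Without sedentary replicate 6, 10 genes passed in both, among them Nsdhl, Msmo1, Pgam2, Cirbp and Nr4a3 in the same direction, and Cbx7 and Lrrc55 no longer did. Of the 177 genes that passed in cohort 1, 53.7% had the same sign in cohort 2, against 52.9% of all genes. When sedentary replicate 6 was left out, these shares were 64.4% and 48.7%. An interaction of group and cohort passed at an unadjusted p under 0.05 for 192 genes (1.48%) and for 0 after adjustment.

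Cholesterol genes were higher in both cohorts. In cohort 1 24 of 26 were higher and 11 rose, with a median of 0.24 (all genes 0.0097). In cohort 2 21 were higher and 3 rose, with a median of 0.13 (all genes 0.0025), or 0.09 without sedentary replicate 6. All 11 that rose over both cohorts together were higher in each. They were chosen in these same libraries, so that agreement is partly built in and gives no separate support. The immediate early genes had medians of −0.37 and −0.18, and −0.32 in cohort 2 without sedentary replicate 6. Endoplasmic reticulum genes had medians of −0.17 with 3 falls in cohort 1 and −0.11 with 0 falls in cohort 2. Myelin genes had a median of −0.12 and 0 falls in cohort 1 and −0.74 and 19 falls in cohort 2. Leaving out sedentary replicate 6, the cohort 2 median was −0.53 with 16 falls, against 2.26% of all genes.

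**Figure D4:**
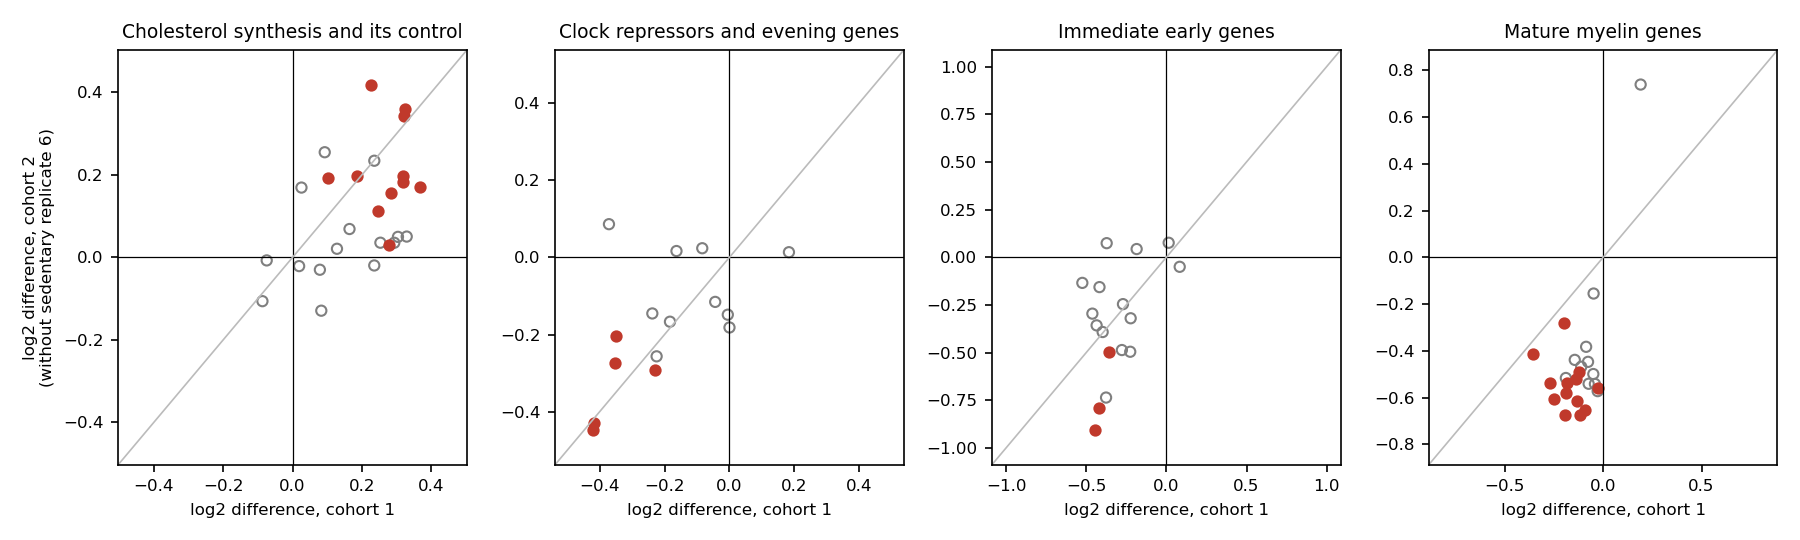
Difference 0-0-2 minus sedentary in log2(FPKM + 0.1) in harvest cohort 1 (x axis, 5 against 5 libraries) and in cohort 2 without sedentary replicate 6 (y axis, 5 against 4) for the members of 4 gene lists, filled where the gene passed in all 20 libraries, with a grey line where both cohorts would be equal. The 11 filled cholesterol genes are above 0 on both axes, and the filled clock, immediate early and myelin genes are below 0 on both. Filled genes were chosen in the same libraries, so their shared sign is partly built in.

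Outside the lists, the genes of smallest p that rose were diverse. Pgam2 ran from 6.97 to 10.8 FPKM (median 9.002) in the sedentary and from 9.18 to 15.4 FPKM (median 10.8) in the 0-0-2 libraries, and all 10 of the latter were above the sedentary median. Its difference was 0.37 ± 0.10 (p = 0.00138), 0.32 in cohort 1 and 0.41 in cohort 2. Gstm4, a glutathione S-transferase, had medians of 6.78 and 8.10 FPKM and a difference of 0.21 ± 0.06 (p = 0.00338). Slc22a8, an organic anion transporter of brain barriers, had medians of 3.82 and 4.42 FPKM and a difference of 0.28 ± 0.09 (p = 0.00507). Olfm4, a secreted glycoprotein gene, ran from 0.974 to 3.75 FPKM (median 1.89) and from 2.04 to 4.22 FPKM (median 3.15), with a difference of 0.61 ± 0.20 (p = 0.00597) and its lowest value in sedentary replicate 6. Each of these kept its call in all 20 fits without 1 library.

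Among the genes of smallest p that fell, most changes were near 0.2 on the log2 scale. The noncoding host gene Snhg12 had medians of 33.6 and 29.5 FPKM and a difference of −0.20 ± 0.05 (p = 0.00163), and it overlaps 4 small nucleolar RNA genes. Fam173b, a lysine methyltransferase gene of mitochondria, had medians of 4.87 and 4.17 FPKM and a difference of −0.22 ± 0.07 (p = 0.00326). Clk3, a kinase of splicing factors, had medians of 18.9 and 16.6 FPKM and a difference of −0.20 ± 0.06 (p = 0.00361). For Fam173b and Clk3 all 10 of the 0-0-2 libraries were below the sedentary median, and 7 sedentary libraries were above the highest 0-0-2 library.

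Cbx7, a polycomb reader of histone methylation, had medians of 19.7 and 17.4 FPKM and a difference of −0.19 ± 0.06 (p = 0.00367). The endosomal adaptor Appl2 was −0.19 ± 0.06 (p = 0.00333), the membrane-bending protein Fnbp1 −0.29 ± 0.09 (p = 0.00369), the RNA-processing factor Srrt −0.29 (p = 0.0058), the microtubule protein Map7 −0.22 (p = 0.00585) and the heme enzyme Cpox −0.15 (p = 0.00625). Mir6516, a microRNA gene that lies in Snhg20, was listed at 0 in all 10 0-0-2 libraries and in 5 sedentary libraries, with values from 107 to 577 FPKM in the other 5 (p = 0.00464). No fold is given, since one group was listed at 0 throughout.

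Acvr1c, the activin and nodal receptor on which the study centred, did not differ between 0-0-2 and sedentary beyond the spread of the libraries. Its lowest, median and highest values were 1.30, 3.76 and 4.64 FPKM in the sedentary and 2.93, 4.31 and 5.30 FPKM in the 0-0-2 libraries, the lowest being sedentary replicate 6. The difference was 0.32 ± 0.19 (p = 0.113, permutation p = 0.132) with all libraries and 0.18 (p = 0.238, permutation p = 0.263) without that library. In cohort 2 without it the difference was 0.00044, and in cohort 1 it was 0.35. Bdnf, the neurotrophin gene, had 1.18 FPKM in sedentary replicate 6, from 14.4 to 22.9 FPKM in the other sedentary libraries and from 10.7 to 30.1 FPKM in the 0-0-2 libraries. Its difference was 0.39 ± 0.40 (permutation p = 0.519) and turned to −0.0085 (permutation p = 0.963) without sedentary replicate 6.

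The 0-0-2 libraries were also compared directly with those of mice that had run before. Against 14-7-2, which ended with the same 2 days of running, 167 genes (1.29%) were higher in 0-0-2 and 149 (1.15%) lower. Against 14-0-0, which had run for 14 days without a delay, 52 (0.4%) were higher and 151 (1.16%) lower. Whether or not they passed, 54.3% of all genes were higher in 0-0-2 than in 14-7-2 and 48.1% than in 14-0-0. The smallest adjusted p of the genes described here was 1 in both. Cholesterol genes were higher in 0-0-2 in 25 of 26 members against 14-7-2 (median 0.10, all genes 0.0074) and in 23 against 14-0-0 (median 0.11, all genes −0.0034). Few of these differences passed the test, 3 against 14-7-2 and 1 against 14-0-0. Among the 11 genes that rose against sedentary, Cyp51 was the only one to do so, against 14-7-2 (0.18, 95% interval 0.05 to 0.31, p = 0.00925).

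Nsdhl itself was not separated from either running group, at 0.11 (95% interval −0.03 to 0.25, p = 0.108) against 14-7-2 and 0.04 (−0.10 to 0.17, p = 0.576) against 14-0-0. Its mean ± SD over 10 libraries was 10.5 ± 1.18 FPKM in sedentary, 13.3 ± 1.44 FPKM in 0-0-2, 13.0 ± 1.25 FPKM in 14-0-0 and 12.3 ± 1.30 FPKM in 14-7-2. In the groups whose running had ended it was 10.2 ± 1.41 FPKM (14-7-0, after 7 days without a wheel) and 11.5 ± 1.54 FPKM (14-14-0, after 14 days), and it was 10.998 ± 1.72 FPKM in untrained home cage mice. Order of the means alone puts the 3 groups that had wheels until the night before training above the 4 that did not, with neighbouring groups overlapping.

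Among the clock and temperature genes, Per2, Cirbp and Arntl were close in 0-0-2 and 14-7-2, but Rbm3 and Npas2 were not. The differences were 0.0036 for Per2 (p = 0.967), 0.0050 for Cirbp (p = 0.951) and 0.03 for Arntl. Rbm3 was lower in 0-0-2 than in 14-7-2 (−0.23, p = 0.00462) and Npas2 higher (0.35, p = 0.00717). Per2 was higher in 0-0-2 than in 14-0-0 (0.18, p = 0.0367), as were 13 of the 15 clock repressors and evening genes. Against 14-7-2, 6 of these 15 were higher. Immediate early genes were higher in 0-0-2 than in 14-7-2 in 14 of 17 members and than in 14-0-0 in 15. Of these, 1 and 0 passed the test. Over all genes 54.3% and 48.1% were higher. Fos was at 0.36 (p = 0.0773) and 0.17. Endoplasmic reticulum genes were higher than in 14-7-2 in 20 of 24, among them Pdia6 (0.19, p = 0.0084), but than in 14-0-0 in 9 of 24 (medians 0.09 and −0.03). Scg2 was also higher than in 14-7-2 (0.16, p = 0.0238). Myelin genes were lower in 0-0-2 than in both, in 22 of 24 members against 14-7-2 (median −0.17) and in all 24 against 14-0-0 (median −0.19). However, 0 of the 24 passed the test in either comparison. Acvr1c was −0.23 (95% interval −0.46 to 0.0075, p = 0.057) against 14-7-2 and −0.22 (−0.48 to 0.03, p = 0.0859) against 14-0-0. Bdnf was −0.13 (p = 0.366) and −0.24 (p = 0.124).

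The remaining lists held few or no calls. Of the cell type lists, the choroid plexus genes were higher in 20 of 20 members with a median of 0.77, the meningeal fibroblast genes in 13 of 15 with a median of 0.30 and the dentate granule cell genes in 13 of 14 with a median of 0.27, and 0 members of each passed the test. The dentate list turned to 9 of 14 and a median of 0.04 without sedentary replicate 6. Its members of smallest p were Calb1 (calbindin, 0.32, p = 0.0725) and Ndst4 (0.43, p = 0.0532). The CA1 and CA3 pyramidal genes had a median of 0.0048 with 0 calls among 20, and of −0.16 with 2 falls, Nptx1 (−0.29) and Grik4 (−0.28), without that library.

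Thalamus genes had a median of −0.03 with 0 calls among 13, and neocortex genes had 1 call among 13, Rprm (12.2 and 16.8 FPKM, 0.57 ± 0.23, p = 0.0233), a gene of subicular and cortical neurons with 3.88 FPKM in sedentary replicate 9. The neocortex genes Lamp5 (−0.16) and Tbr1 (−0.23) fell when sedentary replicate 6 was left out. The astrocyte (16 genes, median −0.02), microglia (16, −0.07), endothelial and pericyte (18, 0.04) and GABAergic interneuron (18, −0.03) lists had 0 calls. Of the microglia genes 15 of 16 were lower, and Itgam fell (−0.16) without sedentary replicate 6. Without that library the medians of the astrocyte, GABAergic and thalamus lists turned to 0.01, 0.01 and 0.0094.

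Lists linked to exercise and plasticity also held few calls. Of 20 exercise-linked genes 0 passed and the median was 0.03, with Npy (0.39, p = 0.0779) and the mitochondrial carrier Ucp2 (0.30, p = 0.0621) nearest to the threshold, and Ucp2 passed without sedentary replicate 6 (0.39, p = 0.00984). Among 12 neurogenesis genes the stem cell filament gene Nes fell, with medians of 2.09 and 1.78 FPKM (−0.20 ± 0.08, p = 0.0261), a call lost without sedentary replicate 0. Among 11 neurotrophin and receptor genes Cntf, a cytokine of astrocytes, fell, with medians of 1.31 and 0.887 FPKM (−0.56 ± 0.20, p = 0.00983). Glucocorticoid response genes were split 8 to 8 among 16 with 0 calls, with Sgk1 at 0.21 (p = 0.0676). When sedentary replicate 6 was left out, the medians were 0.01 for the neurogenesis, −0.01 for the neurotrophin and −0.04 for the glucocorticoid list.

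Activin and TGF beta genes (18, median 0.03), GABA-A receptor subunits (12, median 0.13, 11 higher), AMPA and NMDA receptor subunits (10, median 0.05) and complex I subunits (37, median −0.0013) had 0 calls. Without sedentary replicate 6, the library with the lowest GABA-A sum, the medians were −0.02 for activin and TGF beta (8 of 18 higher), 0.08 for GABA-A and 0.025 for complex I genes (26 of 37 higher). Of 15 histone deacetylase and partner genes, 1 rose, and the median was 0.03, or −0.02 without that library. That was Hdac9, a class IIa deacetylase that holds transcription factors of the MEF2 family in check, with 6.65, 8.80 and 10.3 FPKM as lowest, median and highest sedentary values and 9.27, 10.3 and 11.4 FPKM in the 0-0-2 libraries. All 10 of the latter were above the sedentary median, and the difference was 0.21 ± 0.07 (p = 0.0113).

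**Figure D5:**
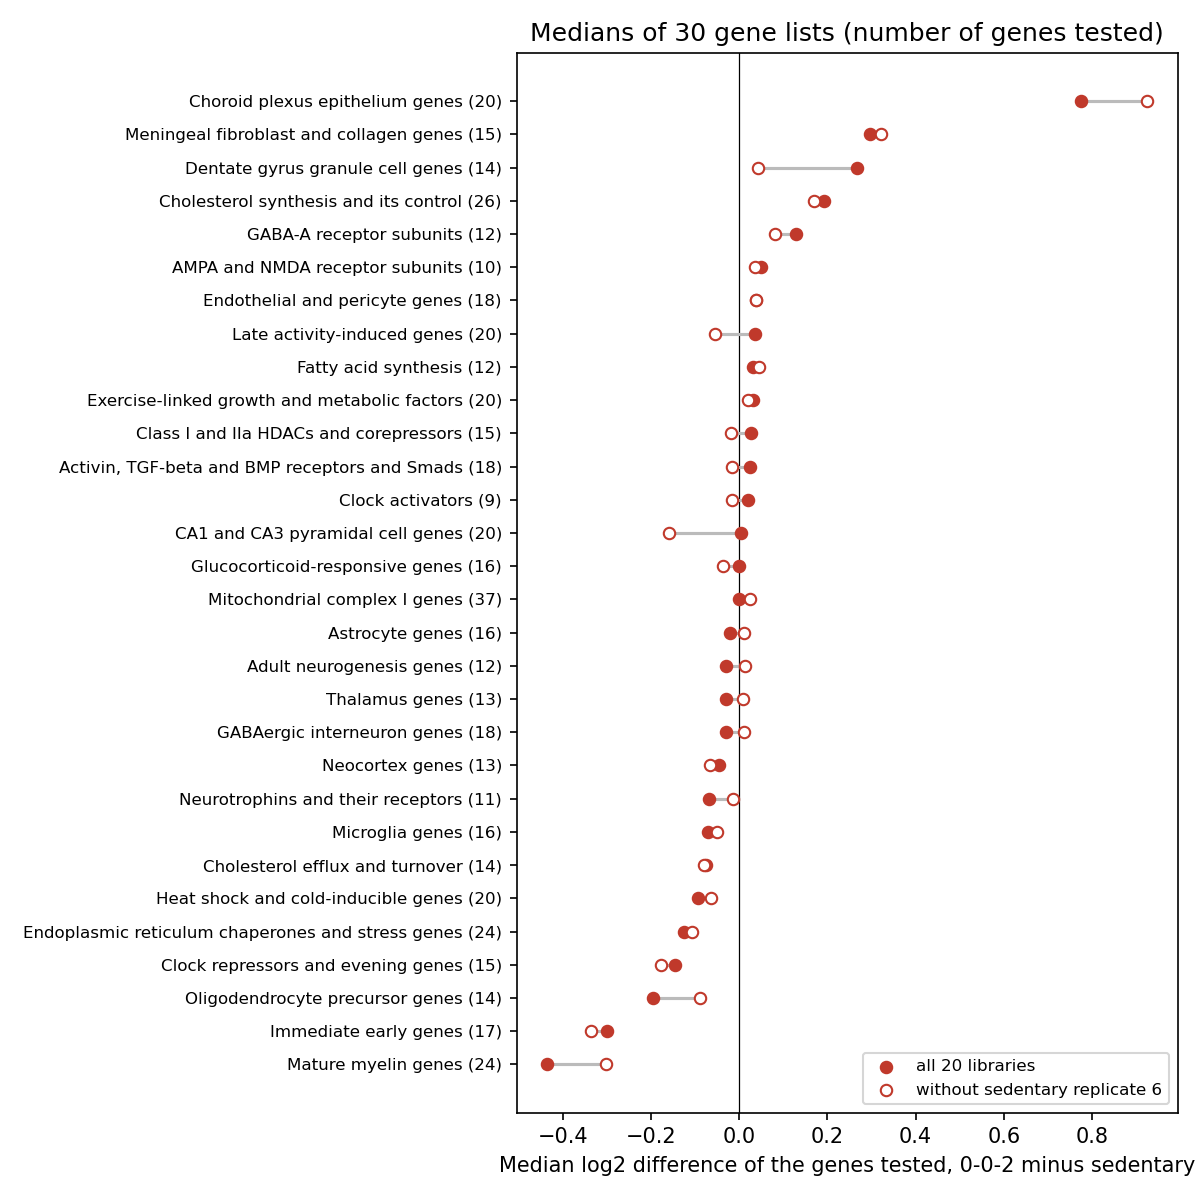
Median difference 0-0-2 minus sedentary in log2(FPKM + 0.1) over the tested members of 30 gene lists, filled points with all 20 libraries and open points without sedentary replicate 6. The choroid plexus (0.77), meningeal and dentate lists lie highest and the myelin (−0.44) and immediate early (−0.30) lists lowest, and the dentate list moves from 0.27 to 0.04 when that library is left out.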

How the data were processed

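The authors deposited FPKM values (24346 genes, 70 libraries). They made them, per the paper's methods and the submitters' processing notes, from 50 bp single reads of poly-A RNA (TruSeq) aligned with ELAND v2e and Bowtie, kept when unique with at most 2 mismatches, and summarised by Cuffnorm on mm10. Versions of Bowtie and Cuffnorm are not given in the sources used here, and a strand-specific protocol is not stated, so overlapping genes share reads. No counts are given: absolute depth is unknown, and relative depth was estimated from the spacing of FPKM values of genes with a mean under 0.1. FPKM scale each library by its own total, so a very abundant transcript lowers all others.

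The 12994 genes whose FPKM averaged 1 or more across the 70 libraries were tested on log2(FPKM + 0.1), computed from the deposited values, with limma 3.58.1 (R 4.3.3, moderated test with trend, two-sided, no covariates), 10 libraries against 10. Calls used an unadjusted p under 0.05, as in the study, and Benjamini-Hochberg adjustment ran over all genes tested. The study used Cyber-T, which was rewritten as an alternative (window 101 genes, prior weight 10). Single genes were also tested by 100000 permutations. The labels do not say more than that libraries are separate mice, and p-values measure the spread between these libraries. Gene coordinates and promoters were taken from RefSeq GRCm38.p6.

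The comparison and the 30 gene lists were chosen with earlier results of these data known, so counts over lists are descriptions and no set was tested. The text names the 12 genes of smallest p in each direction, members of lists that passed, members of the other lists only where their p was under 0.1 or passed without sedentary replicate 6, Acvr1c, Bdnf and the 5 genes most correlated with the gene of smallest p. Arc, Per1, Npas2 and the marker genes were added after their values were seen. Of the alternatives, 22 were planned and 3 were added after the data were seen (without the libraries highest in thalamus genes, without those highest in choroid plexus genes, and cohort 2 without sedentary replicate 6). Some genes of the lists are not reported here by name. The fits were checked on simulated data. Python 3.11.15, pandas 2.3.3, numpy 2.4.6, scipy 1.17.1 and matplotlib 3.10.9 were used.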

Additional observations from a re-analysis of the deposited data

Results flagged for a closer look

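Among 198 sets of 10 libraries examined (69 genes and 30 list sums in each of the 2 groups), 20 had 1 library whose gap to its neighbour, on the log2 scale, took more of the whole range than Dixon's 95% critical value allows. Chance gives about 1 in 20, or 9.9, and 10 of the 20 were in sedentary replicate 6.

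In sedentary replicate 6 the values that stood apart were Bdnf (1.18 FPKM), Arntl (8.22), Fads1 (97.4), Cbx7 (24) and Ndst4 (2.26), and the sums of the late activity (502 FPKM), thalamus (346), neurogenesis (932), GABA-A receptor (296) and AMPA and NMDA receptor (375) lists. In 0-0-2 replicate 9 they were Srrt (19 FPKM), Ucp2 (29.3) and the sums of the cholesterol efflux (707 FPKM) and glucocorticoid response (335) lists. In 0-0-2 replicate 8 they were Arntl (9.64 FPKM), Insig1 (21.6) and the neocortex sum (214 FPKM). The others were Rprm (3.88 FPKM) and the dentate sum (129 FPKM) in sedentary replicate 9 and the microglia sum (503 FPKM) in sedentary replicate 4.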

How the results depend on the processing

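The counts of genes higher and lower (148 and 160) were 17 and 20 at p under 0.01, 0 and 0 after adjustment, 98 and 79 in cohort 1, 84 and 270 in cohort 2 (294 lower without sedentary replicate 6), 348 and 249 with no minimum level, 430 and 372 with array quality weights, and 243 and 263 in a joint fit of all 7 groups. Genes higher were 230 with a minimum mean of 0.1 FPKM, 86 with a minimum of 5, 61 by Cyber-T applied to FPKM and 67 when applied to log2 values, and genes lower were 105 with the myelin level as covariate. Leaving out 1 library gave 105 to 198 higher and 105 to 262 lower. The lower count was 105 without 0-0-2 replicate 1, 247 without 0-0-2 replicate 0 and 262 without sedentary replicate 2.

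With 1 library left out, Bdnf ranged from −0.0085 without sedentary replicate 6 to 0.49 without 0-0-2 replicate 8. It was also below 0, at −0.0052 without sedentary replicate 6 and with cohort as covariate, −0.22 in cohort 2 without that library, and −0.084 with the myelin covariate. In single cohorts Acvr1c against 14-7-2 was 0.082, Cirbp against 14-7-2 −0.097 and Arntl against 14-0-0 0.0047. The cause of these changes was not tested. Same-numbered libraries of the groups did not deviate together (correlations −0.14 to 0.31, 2 of 10 over 0.1, 0 of 10 best with its own number). With the replicate number as a block, 187 genes were higher and 174 lower, and Nsdhl had an adjusted p of 0.035. Of the other values, 2597 kept direction and side of the threshold, 251 lost and 73 gained the call.

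Differences under about 0.2 on the log2 scale were rarely separated from the spread at this number of mice, and without counts the part of read depth in that spread is unknown.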
